A study of Mus musculus with 22 samples.

Results

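A set of 10 genes for factors that fat cells release were followed in mouse brown adipose tissue (BAT). They are the adipokines Adipoq, Lep, Retn, Cfd, Rbp4 and Apln, and the brown fat secreted factors Nrg4, Bmp8b, Slit2 and Metrnl. They were chosen by name with earlier results of these data known, as 10 of the 55487 genes in each count table. All 10 had enough counts to be tested in both cohorts. The question was how the RNA of these genes depends on CPEB2, an RNA-binding protein that regulates translation, and on PRDM16, a transcriptional regulator that brown fat cells need for their identity.

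The untreated cohort held BAT from 5 CPEB2-WT and 5 CPEB2-KO mice of 21 to 25 weeks. The paper states that these mice went without food for some hours before collection. It describes no such fast for the AAV cohort. In the AAV cohort, CPEB2-WT and CPEB2-KO mice of 16 weeks received 20000000000 vector genomes in 30 µl at 3 sites of the interscapular BAT, and the tissue was taken 9 weeks later, at 25 weeks. The vector was adeno-associated virus (AAV) carrying either GFP or the PRDM16 coding region, with 3 mice in each of the 4 combinations of genotype and virus. The labels describe all mice as male, on a chow diet. The deletion is in the whole body and not in fat alone, all 4 AAV groups carry a virus, and Prdm16 counts in mice given AAV-PRDM16 mix the endogenous transcript with that of the vector.

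White and brown fat cells are endocrine cells. Adiponectin, leptin, resistin and adipsin are classical products of fat, and leptin from fat reports energy stores to the brain. Brown fat also sends out factors of its own: neuregulin 4 acts on the liver through ErbB receptors, BMP8B tunes thermogenesis and sympathetic innervation, a cleaved fragment of SLIT2 is linked to thermogenesis, and meteorin-like acts on immune cells in fat. Transcript levels were measured here, and neither the proteins nor their secretion.

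Several libraries went against their labels or stood apart. In the untreated cohort, WT mice 3 and 5 and KO mice 1, 3, 4 and 5 had Xist at 104 to 305 CPM (counts per 1000000 counts of the library) and a sum of at most 1.17 CPM over 4 Y-linked transcripts, although the labels call the mice male. The other 4 untreated libraries had 77.1 CPM or more of Y-linked transcripts. Among these 4, Xist was at 0.0876 CPM in WT mouse 1, 0.031 in WT mouse 2, 1.65 in KO mouse 2 and 14 CPM in WT mouse 4. All 12 AAV libraries had 154 CPM or more of Y-linked transcripts and at most 0.268 CPM of Xist. Cpeb2 was at 7.69 to 14.3 CPM in untreated WT mice and at 2.10 to 5.78 CPM in the libraries labelled KO mice 2 to 5, but at 11.7 CPM in the library labelled KO mouse 1. After AAV injection the genotypes did not overlap, with Cpeb2 at 4.33 to 5.55 CPM in the KO libraries and 10.5 to 14.0 CPM in the WT libraries. Prdm16 was at 23.9 to 40.2 CPM with AAV-GFP and at 45.9 to 128 CPM with AAV-PRDM16. Ucp1, the defining gene of brown fat, ranked between 22 and 60 per length in all 22 libraries. The 15 muscle markers summed to 52.6 to 8010 CPM in untreated libraries and 32.6 to 149 CPM in AAV libraries, where WT AAV-PRDM16 mouse 2 and KO AAV-GFP mouse 1 had the highest mean log2 CPM over these markers.

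The proximal promoters of 6 members are shown: the 5 whose transcripts varied together between untreated mice, and Lep, which had a negative correlation with them. Each line gives the 100 bases upstream of the transcription start, 5′ to 3′ on the gene's strand, from RefSeq on GRCm38.p6. Capitals mark matches on either strand to TTGCNNAA (the core of the element bound by C/EBP factors, which drive fat cell differentiation), to TATAAA (the TATA box) and to CCAAT (the CCAAT box).
Adipoq (chr16:23146436-23146535, plus strand): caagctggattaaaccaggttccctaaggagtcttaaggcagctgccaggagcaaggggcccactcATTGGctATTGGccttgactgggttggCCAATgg
Cfd (chr10:79890753-79890852, plus strand): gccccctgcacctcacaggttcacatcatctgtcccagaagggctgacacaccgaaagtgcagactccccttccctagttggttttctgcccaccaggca
Retn (chr8:3655670-3655769, plus strand): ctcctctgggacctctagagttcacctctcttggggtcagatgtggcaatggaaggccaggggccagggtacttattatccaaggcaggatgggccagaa
Rbp4 (chr19:38124812-38124911, minus strand): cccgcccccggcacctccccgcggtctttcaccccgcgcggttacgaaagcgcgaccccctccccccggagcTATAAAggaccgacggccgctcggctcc
Bmp8b (chr4:123105061-123105160, plus strand): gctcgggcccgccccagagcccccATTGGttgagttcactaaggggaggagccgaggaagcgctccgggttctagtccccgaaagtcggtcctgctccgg
Lep (chr6:29060121-29060220, plus strand): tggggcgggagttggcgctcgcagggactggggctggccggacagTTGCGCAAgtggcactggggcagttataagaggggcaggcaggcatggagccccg
Adipoq had 3 CCAAT matches and Bmp8b had 1, Lep had 1 C/EBP match, and Rbp4 had 1 TATA match at 28 bases before the start. Rbp4 has a second RefSeq start, whose window (chr19:38125322-38125421) held no TATA match. Of 32851 mouse promoter windows of this length, 3.43% held the C/EBP letters, 5.56% held TATAAA and 18.9% held CCAAT. Cfd and Retn matched none of the 3 in this window.

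Adipoq and Cfd were the most abundant members and Slit2 the least abundant. Per kilobase of the longest annotated transcript, the untreated WT mice had Cfd (adipsin, a serine protease of the alternative complement pathway) at 849 ± 909 CPM (SD, n = 5) and Adipoq (adiponectin, an insulin-sensitising hormone) at 434 ± 127. Their ranges overlapped. Adipoq stood apart from the next gene, Nrg4 (neuregulin 4), at 50.9 ± 16.8 CPM per kilobase, and Cfd did not, with 66.4 CPM per kilobase in WT mouse 1 against up to 75.9 for Nrg4. Rbp4 (the retinol carrier of plasma) at 38.8 ± 17.0, Lep (leptin) at 17.8 ± 21.5 and Retn (resistin) at 9.54 ± 5.6 CPM per kilobase followed, each with a range that overlapped that of the next. Metrnl (meteorin-like) at 2.98 ± 1.70, Apln (apelin, the ligand of the receptor Aplnr) at 1.17 ± 0.657 and Bmp8b (a bone morphogenetic protein) at 1.07 ± 1.84 CPM per kilobase overlapped in the same way. Slit2 (a secreted guidance protein that binds Robo receptors) had 0.0713 ± 0.0586 CPM per kilobase and only 8 to 210 counts in a library of the untreated cohort.

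In the AAV cohort Adipoq came first in all 4 groups and Slit2 last. In WT mice given AAV-GFP, none of the 10 neighbouring members overlapped in range: Adipoq was at 325.1 ± 55.96 CPM per kilobase (SD, n = 3), Cfd next at 168 ± 85.4, then Nrg4 at 51.5 ± 6.03, and Slit2 last at 0.0357 ± 0.0146. Lep moved up the order in the KO groups, from the place below Rbp4 in both WT groups to the place above it, with overlapping ranges. Among all genes tested, ranked per length within a library, Adipoq stood between 91 and 152 in every untreated library and between 94 and 145 in every AAV library. Lep ranked anywhere between 685 and 11066 in untreated libraries and between 479 and 10289 in AAV libraries.

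The members also differed in how steady they were between mice. Between untreated libraries the highest level was 66.2 times the lowest for Lep, 61.6 times for Cfd and 255.1 times for Bmp8b, against 2.72 times for Adipoq and 2.42 times for Nrg4. The SD of log2 CPM within groups was 2.45 for Bmp8b and 2.35 for Lep in the untreated cohort, higher than in 98.7% and 98.4% of the 17869 genes tested. Nrg4 lay at the other end, with an SD of 0.353 that was higher than in 13.5% of genes. In the AAV cohort, Bmp8b (1.45) and Lep (1.18) again had the largest SDs of the 10, and Nrg4 the smallest at 0.108, with the median over all genes at 0.305. Nrg4 shares 368 exonic bases with Fbxo22 on the opposite strand and Bmp8b shares 339 with Gm17244 and 133 with Ppie, so reads of these partners could be counted in them if strand was not used, which the sources used here do not give.

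In untreated BAT, none of the 10 members passed the test of CPEB2-KO against CPEB2-WT mice. The edgeR quasi-likelihood test with Benjamini-Hochberg adjustment called 0 of 10 at a false discovery rate (FDR) of 0.05, and it called 0% of all 17869 genes, of which 2836 had an unadjusted p under 0.05. No member had an unadjusted p under 0.05, and in none did the libraries of the groups separate completely, as they did for 1.4% of all genes. The fold changes of 8 members were above 0 and their median was 0.343 on the log2 scale, beside 0.0362 over all genes. WT mice 3 and 5 and KO mice 1, 3, 4 and 5 lacked Y-linked transcripts, so this trait was not balanced between the genotypes. Several members also varied together between mice, so their directions are not separate observations. At the looser thresholds of the study, at least 2-fold and FDR 0.5, Retn and Cfd passed, as did 10.8% of all genes. Fewer cells of a type and less RNA per cell cannot be told apart in bulk tissue, and this holds for each comparison.

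Cfd showed how wide the spread was. Its level in the WT mice, in the order of mice 1 to 5, was 61.2, 346, 1310, 196 and 1999 CPM. In the KO mice it was 250, 371, 1591, 3770 and 3015 CPM. The 2 highest WT mice lay above the 2 lowest KO mice, and the log2 difference was 1.20 ± 0.91 (SE; 95% interval -0.76 to 3.17; FDR 0.469).

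Retn followed the same mice. Resistin RNA was at 3.92, 9.65, 19.3, 6.15 and 15.3 CPM in WT mice 1 to 5 and at 8.09, 5.54, 19.4, 48.5 and 29.2 CPM in KO mice 1 to 5. Its log2 difference was 1.03 ± 0.58 (95% interval -0.23 to 2.28; FDR 0.36). KO mice 3, 4 and 5 exceeded all WT mice, mouse 3 by 19.36 against 19.31 CPM, and KO mice 1 and 2 lay within the WT range.

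Adipoq was at 415, 545, 620, 417 and 810 CPM in WT mice 1 to 5. The KO mice had 423, 362, 784, 852 and 985 CPM, and the log2 difference was 0.28 ± 0.33 (95% interval -0.44 to 0.998; FDR 0.646). Rbp4 had 25.4 to 66.1 CPM in WT and 15.9 to 108 CPM in KO mice, with a log2 difference of 0.57 ± 0.47 (FDR 0.5). With the Y-linked transcripts as a covariate, the differences of Adipoq and Rbp4 turned to -0.06 and -0.14.

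Leptin RNA was at 84.7, 2.92, 28.2, 168 and 5.10 CPM in WT mice 1 to 5, and at 193.2, 155, 10.1, 11.8 and 12.2 CPM in KO mice 1 to 5. In each genotype, then, 2 mice had 84.7 CPM or more and the other 3 had 28.2 CPM or less. The log2 difference was 0.40 ± 1.09 (95% interval -1.97 to 2.77; FDR 0.852), and it turned to -0.29 without KO mouse 1, whose Cpeb2 was at a WT level.

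Among the brown fat factors, Nrg4 was at 113, 146, 63.9, 77.4 and 89.6 CPM in WT mice 1 to 5 and at 60.4 to 84.7 CPM in the KO mice. Its log2 difference was -0.49 ± 0.25 (95% interval -1.03 to 0.05; FDR 0.336). Metrnl had the smallest p of the 10, 0.0532, with 2.02 to 7.91 CPM in WT and 4.86 to 9.32 CPM in KO mice and a log2 difference of 0.82 ± 0.38 (FDR 0.316). The groups overlapped for both genes. Bmp8b, Apln and Slit2 had log2 differences of -0.19 ± 1.14, 0.29 ± 0.53 and 0.18 ± 0.70, and each of these changed sign in at least 1 alternative. Bmp8b rested most on a single library: WT mouse 5 had 12.8 CPM while the other WT mice had 0.187 to 1.66, and without it the log2 difference was 1.91.

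**Figure D1:**
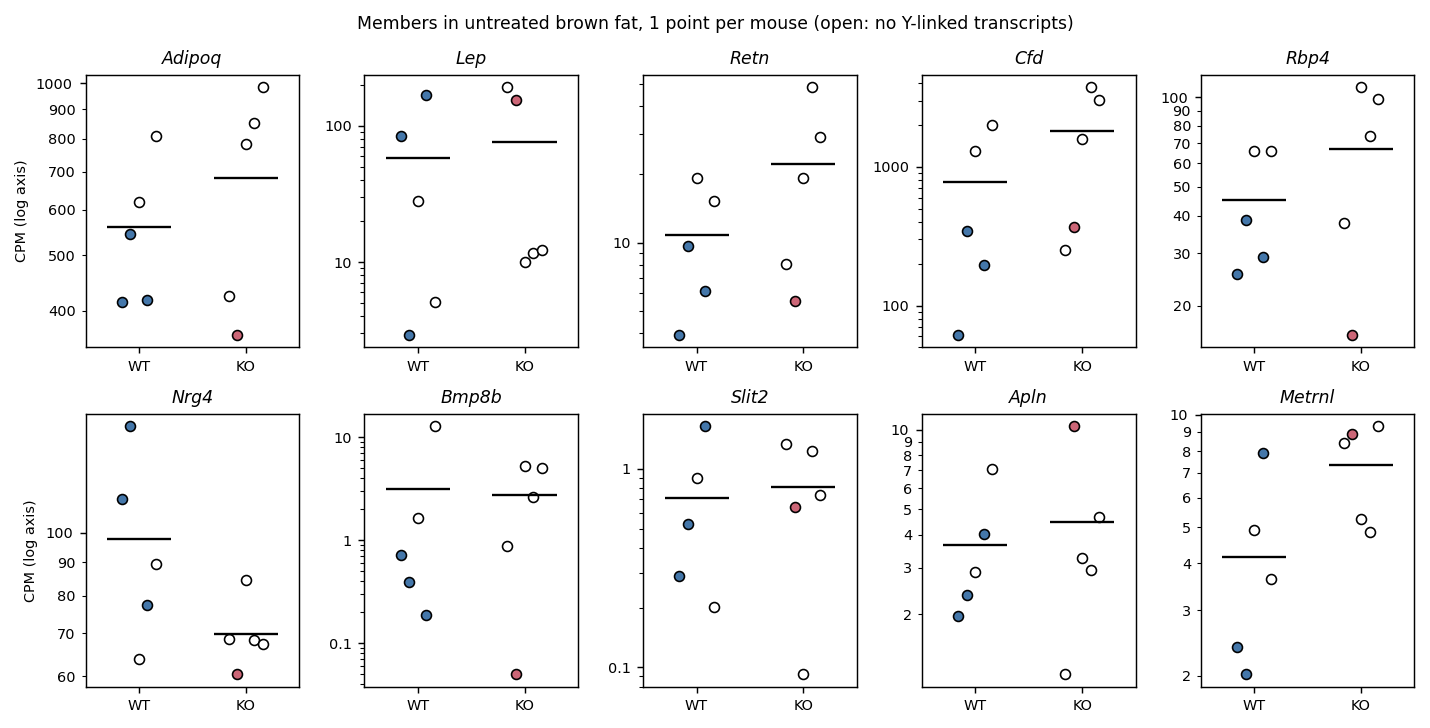
CPM (log axis) of the 10 members in untreated BAT, 1 point per mouse, with the mean of each group as a line; open points are libraries without Y-linked transcripts. WT and KO overlap in every panel. Lep in KO mice splits into a low set (10.1 to 12.2 CPM) and a high set (155 to 193.2 CPM), and in WT mice it spreads from 2.92 to 168 CPM.

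The members varied together between untreated mice, after the mean of each genotype was subtracted. Of the 45 pairs, 8 had a Pearson correlation of log2 CPM with an adjusted p under 0.05 in an exact permutation test within genotypes (n = 10, two-sided). These 8 joined Adipoq with Cfd, Retn, Rbp4 and Bmp8b, Retn with Cfd and Rbp4, Cfd with Rbp4, and Bmp8b with Rbp4. For Adipoq and Cfd, r was 0.902 (exact permutation, adjusted p = 0.0141) and rho was 0.855 (adjusted p = 0.0484), and r was 0.937 without the 2 libraries farthest from the median. For Retn and Cfd, r was 0.935 (exact permutation, adjusted p = 0.0141), rho was 0.891 (adjusted p = 0.0484) and r without the 2 farthest libraries was 0.935. These 2 pairs were the only ones of the 45 to pass by rank as well. The other 6 had r from 0.811 to 0.928 and adjusted p from 0.0156 to 0.0316.

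Lep had a negative r with this set. Its r with Adipoq was -0.827 (rho -0.648; exact permutation p = 0.0104 and 0.0418; adjusted p = 0.0521 and 0.171), so it missed the threshold after adjustment. Nrg4, which varied little, had r of 0.0557 with Adipoq (exact permutation, adjusted p = 0.972; rho -0.00606, adjusted p = 1).

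The untreated libraries also differed in Y-linked transcripts. The 6 libraries without them had 1310 to 3770 CPM of Cfd apart from KO mouse 1 at 250, and the 4 with them had 61.2 to 371 CPM. Within the 6, without subtracting group means, r was 0.955 for Adipoq and Cfd and 0.903 for Retn and Cfd (exact permutation p = 0.00556 and 0.00972). It was 0.622 for Bmp8b and Rbp4, against 0.889 over the 10 libraries, and 0.657 for Retn and Rbp4, against 0.865. Group means were not subtracted for any of these values. No pair of the 45 passed after adjustment among these 6, the smallest adjusted p being 0.109, and so few libraries limit how small it can be. The 4 libraries with Y-linked transcripts were too few for a correlation. Without 1 mouse at a time, 2 to 7 pairs passed: 2 without KO mouse 1 or KO mouse 2, 4 without KO mouse 3, and 5 without WT mouse 3 or WT mouse 5. Without WT mice 1 and 2 together, 0 pairs passed. Leaving out mice also leaves fewer permutations within genotypes, which limits how small p can be.

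Markers of several cell types differed between these libraries. The 15 muscle markers summed to 66.4 to 3900 CPM in WT and 52.6 to 8010 CPM in KO libraries, with none of them at 0 in any library, and their sum was over 1000 CPM in 2 mice with much Cfd (WT mouse 3 and KO mouse 5) and in 2 with much Lep (KO mice 1 and 2). Over 1000 CPM of Cfd was found in 5 libraries, WT mice 3 and 5 and KO mice 3, 4 and 5. The 12 brown fat markers summed to 8769 to 13650 CPM in these and to 4545 to 6715 CPM in the other 5. Ucp1, 1 of the 12, was a large part of these sums, at 4286 to 6700 CPM and at 1444 to 3476 CPM. Macrophage markers at 311 to 489 CPM and markers of fibroblasts and progenitors at 583 to 785 CPM were highest in WT mouse 4 and KO mice 1 and 2, which are 3 of the 4 libraries with the most Lep. The 11 white fat markers summed to 316, 130, 119, 338 and 55.7 CPM in WT mice 1 to 5 and to 340, 375, 64.02, 89.7 and 120 CPM in KO mice 1 to 5, so the 4 libraries with over 300 CPM were also the 4 with the most Lep. Hoxc9, a defining gene of white fat, was at 0 to 0.163 CPM in these libraries. The part of these cells in the levels of Lep, Adipoq, Cfd and Retn was not tested.

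**Figure D2:**
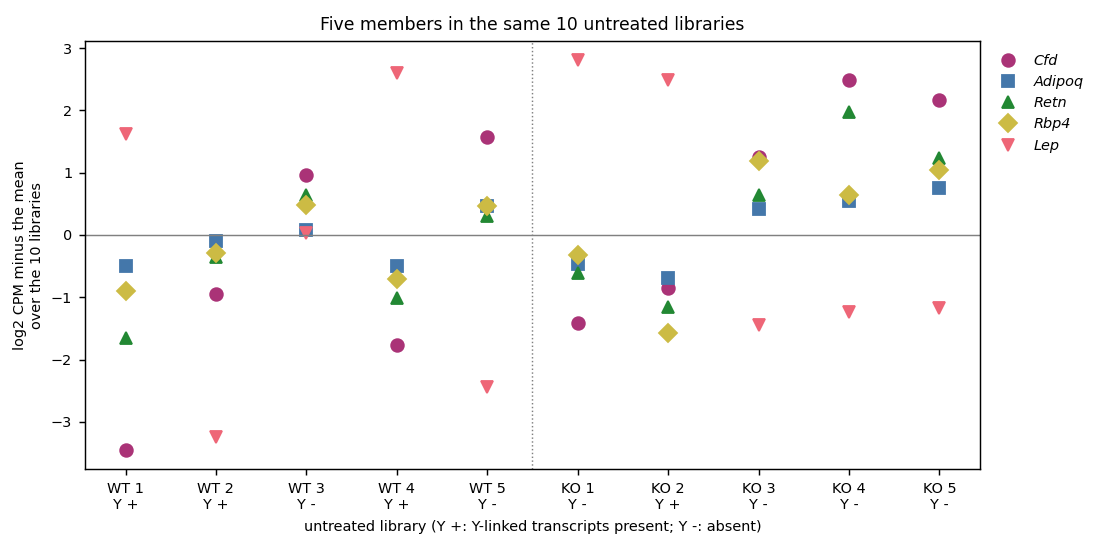
Log2 CPM minus the mean over the 10 libraries (vertical axis) of Cfd, Adipoq, Retn, Rbp4 and Lep in each untreated mouse (horizontal axis). In KO mice 1 and 2 Lep lies above its mean and the other 4 genes below theirs, while in WT mouse 2 all 5 lie below their means.

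In the AAV cohort, none of the 45 pairs passed after adjustment (n = 12, exact permutation within groups). The pair with the smallest p was Rbp4 and Slit2, with r of -0.719, rho of -0.699, an exact permutation p of 0.00309 and 0.00694 and adjusted p of 0.139 and 0.182. Adipoq and Cfd had r of 0.809 (exact permutation, adjusted p = 0.174). Cfd spanned 69.7 to 229 CPM in this cohort, against 61.2 to 3770 in the untreated one. The paper describes food deprivation for the untreated cohort alone. The cohorts were fitted apart, and a difference between them was not tested.

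Leptin had the largest genotype difference of the 10 over both viruses, though it did not pass the FDR. Lep was at 34.9, 21.3 and 30.0 CPM in WT mice given AAV-GFP and at 4.04, 50.6 and 33.0 CPM in WT mice given AAV-PRDM16. In KO mice it was at 78.1, 78.4 and 128 CPM with AAV-GFP and at 82.4, 45.4 and 242 CPM with AAV-PRDM16. A single pair of libraries kept the genotypes from separating: KO AAV-PRDM16 mouse 2 (45.4 CPM) lay below WT AAV-PRDM16 mouse 2 (50.6 CPM). Over both viruses the log2 difference was 1.90 ± 0.51 (SE; 95% interval 0.78 to 3.02; FDR 0.0756, edgeR), 6 KO against 6 WT mice. DESeq2 gave 1.90 with FDR 0.0176, and it called 8.38% of all genes in this comparison. Without 1 library at a time the difference was 1.43 to 2.22, with edgeR FDR from 0.0597 to 0.166.

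Over both viruses, 0 of 10 members passed FDR 0.05, which 2.18% of the 18899 genes did. Lep and Bmp8b had an unadjusted p under 0.05 and were the 2 members at least 2-fold apart at FDR 0.5, which 4.92% of all genes were. No member had 6 KO libraries wholly above or below the 6 WT libraries, as 2.71% of genes had. The median log2 difference of the members was 0.0468, beside 0.0104 over all genes.

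Bmp8b was at 0.287, 0.468 and 0.137 CPM in WT AAV-GFP, 0.0936, 0.354 and 0.328 in WT AAV-PRDM16, 1.16, 2.32 and 0.153 in KO AAV-GFP and 0.843, 1.24 and 0.117 CPM in KO AAV-PRDM16. In each KO group 2 mice stood above all WT mice and mouse 3 stood among the lowest. The log2 difference over both viruses was 1.76 ± 0.66 (95% interval 0.33 to 3.20; FDR 0.173), from 7 to 259 counts a library.

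Slit2 and Rbp4 came next. Slit2 had a log2 difference of 0.84 ± 0.40 (95% interval -0.03 to 1.71; FDR 0.290). Rbp4 was at 29.7 to 49.0 CPM in WT and 11.5 to 36.4 CPM in KO mice, with a log2 difference of -0.52 ± 0.25 (95% interval -1.06 to 0.02; FDR 0.297). These intervals both cross 0.

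The other 6 members also had intervals with both signs. Adipoq was at 342 to 504 CPM in WT and 371 to 550 CPM in KO mice (log2 difference -0.02, 95% interval -0.30 to 0.26). Nrg4 was at 86.1 to 113 CPM in WT and 97.1 to 118 CPM in KO mice (0.06, interval -0.09 to 0.22). Retn (-0.23, interval -0.76 to 0.30), Cfd (-0.10, interval -0.83 to 0.62), Metrnl (0.14, interval -0.37 to 0.66) and Apln (0.03, interval -0.61 to 0.67) had wider intervals. The signs of Adipoq, Cfd, Metrnl and Apln changed when single libraries were left out.

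The difference of Lep had the same sign with each virus. Under AAV-GFP its log2 difference was 1.72 ± 0.72 (FDR 0.506) and the 3 KO libraries lay above the 3 WT libraries, a separation that 13.4% of all genes showed in either direction. Under AAV-PRDM16 it was 2.07 ± 0.73 (FDR 0.247) with overlap, and 22.8% of genes had none. No member passed FDR 0.05 under either virus, against 0.0529% and 0.0476% of all genes. At least 2-fold and FDR 0.5 was met by no member under AAV-GFP (1.8% of genes) and by Lep alone under AAV-PRDM16 (4.85% of genes).

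Markers of other cell types also differed between the genotypes. The 10 macrophage markers summed to 44.5 to 132 CPM in WT and 84.3 to 387 CPM in KO libraries, with none at 0, and 5 of the 10 were higher at FDR 0.05. The 10 markers of fibroblasts and progenitors summed to 162 to 298 CPM in WT and 286 to 451 CPM in KO libraries, none at 0, and 4 of the 10 were higher. White fat markers summed to 118 to 233 CPM in WT and 197 to 395 CPM in KO libraries, with 2 to 5 of the 11 at 0, among them Hoxc9 in every AAV-GFP library. Of the 8 white fat markers tested, 5 had a log2 difference above 0 (median 0.290), and 1 was higher and 0 lower at FDR 0.05. Of the 12 brown fat markers, 3 were lower in KO mice. Their part in the level of Lep was not tested. A fit left out WT AAV-PRDM16 mouse 2 and KO AAV-GFP mouse 1, the 2 libraries highest in mean log2 CPM of muscle markers. There the log2 difference of Lep was 2.28 and that of Slit2 between the viruses -1.81.

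**Figure D3:**
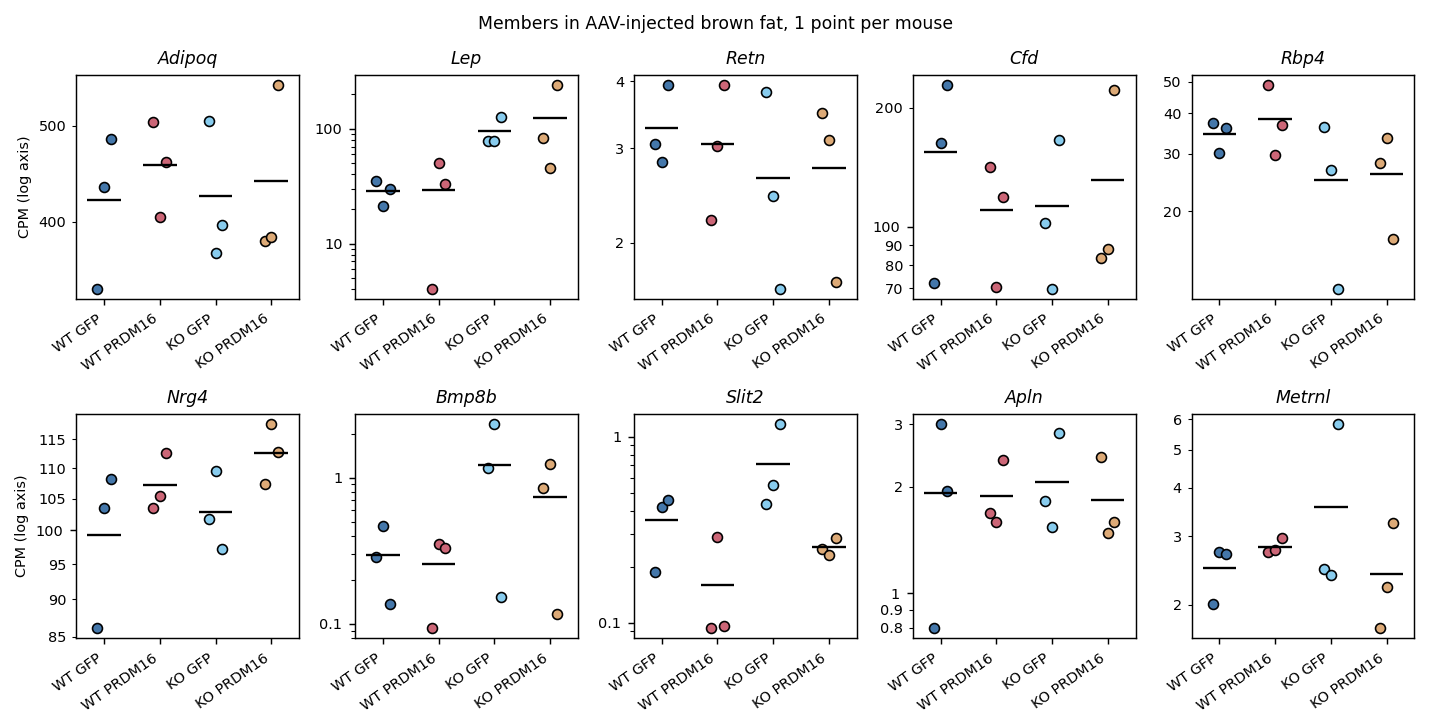
CPM (log axis) of the 10 members in the 4 AAV groups, 1 point per mouse, with the group mean as a line. Lep lies higher in KO mice with either virus, from 45.4 to 242 CPM against 4.04 to 50.6 in WT mice, and the mean of Slit2 is lower with AAV-PRDM16 in both genotypes.

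AAV-PRDM16 was compared with AAV-GFP to see which members followed PRDM16. Slit2 was the member with the largest difference. It was at 0.188, 0.420 and 0.457 CPM in WT AAV-GFP and at 0.0936, 0.288 and 0.0964 CPM in WT AAV-PRDM16 mice. In KO mice it was at 0.432, 0.547 and 1.17 CPM with AAV-GFP and at 0.248, 0.231 and 0.284 CPM with AAV-PRDM16. The KO groups did not overlap, and the WT groups did through WT AAV-PRDM16 mouse 2.

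Over both genotypes the log2 difference of Slit2 was -1.33 ± 0.40 (95% interval -2.20 to -0.45; FDR 0.194). It was -1.16 ± 0.57 in WT (FDR 0.714) and -1.50 ± 0.56 in KO mice (FDR 0.574). These values rest on 8 to 168 counts a library. Slit2 was the only member with complete separation in KO mice, where 9.43% of genes separated, and no member separated in WT mice, where 14.2% of genes did, or over both genotypes, where 0.561% did. T cell markers also differed with the virus: they summed to 2.02 to 35.9 CPM with AAV-GFP and 1.18 to 2.56 CPM with AAV-PRDM16, with up to 3 of 10 at 0 in a library given AAV-PRDM16. Macrophage markers summed to 60.8 to 387 CPM with AAV-GFP and 44.5 to 104 CPM with AAV-PRDM16. Their part in the Slit2 level was not tested.

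None of the other 9 members had an unadjusted p under 0.05 for the virus in either genotype or over both. Over both genotypes the log2 differences were 0.08 for Adipoq (95% interval -0.19 to 0.36), 0.20 for Lep (-0.88 to 1.29), -0.01 for Retn (-0.54 to 0.52), -0.13 for Cfd (-0.86 to 0.59) and 0.12 for Nrg4 (-0.03 to 0.28). They were -0.45 for Bmp8b (-1.86 to 0.95), 0.11 for Rbp4 (-0.43 to 0.65), -0.10 for Apln (-0.74 to 0.54) and -0.20 for Metrnl (-0.71 to 0.32). Nrg4 had the narrowest interval, and those of Lep and Bmp8b reached beyond 1 log2 unit, upward for Lep and downward for Bmp8b.

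No member passed FDR 0.05 for the virus in WT (0% of genes), in KO (0% of genes) or over both genotypes (0.037% of genes). An unadjusted p under 0.05 was found for 1377 genes in WT and 1211 genes in KO mice, and DESeq2 called 147 and 262 genes. At least 2-fold and FDR 0.5 was met over both genotypes by Slit2 alone (4.49% of genes), and by no member in WT (1.46% of genes) or KO mice (2.15% of genes).

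KO mice given AAV-PRDM16 were set against WT mice given AAV-GFP, the comparison of rescue. Lep was 2.10 ± 0.73 higher on the log2 scale (FDR 0.522), and its 3 KO AAV-PRDM16 libraries (45.4 to 242 CPM) lay above the 3 WT AAV-GFP libraries (21.3 to 34.9 CPM), as 13.2% of genes separated. The other 9 members had differences whose p was over 0.05. None of the 10 passed FDR 0.05 (0.00529% of genes), and none was at least 2-fold apart at FDR 0.5 (0.9% of genes). This comparison shares its WT AAV-GFP mice with the genotype comparison under AAV-GFP.

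The effect of the virus was not found to differ between the genotypes for any member. The interaction of genotype and virus ranged from -0.763 to 0.703 on the log2 scale over the 10 members, with a smallest p of 0.135, and it was called for 0% of all genes both at FDR 0.05 and at 2-fold with FDR 0.5. Over all genes 603 had an unadjusted p under 0.05 for the interaction, and DESeq2 called 1 gene.

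**Figure D4:**
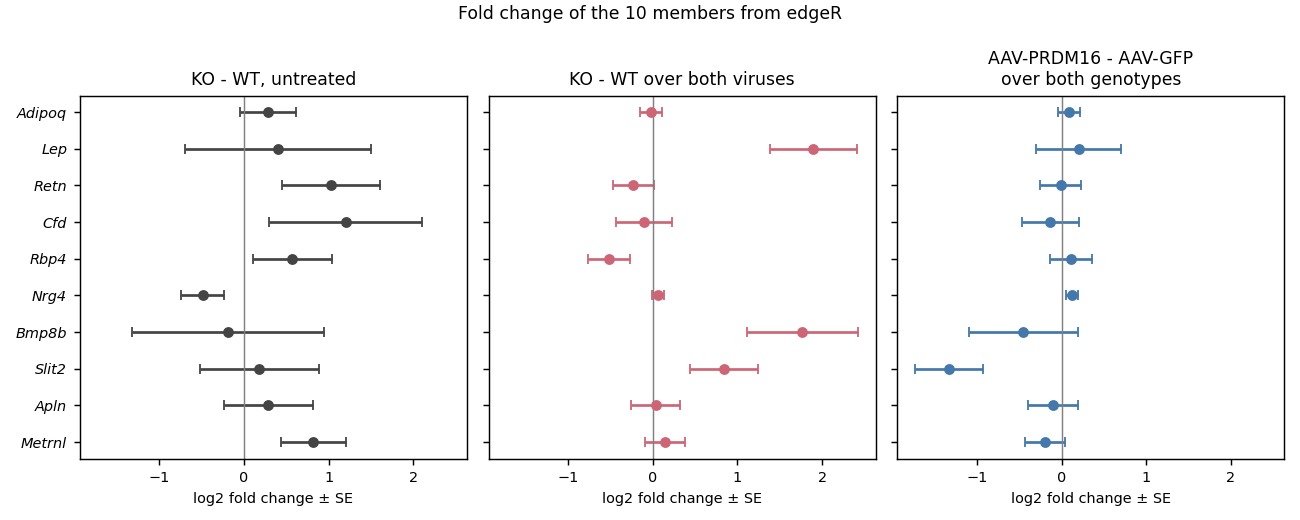
Log2 fold change (horizontal axis, point) with its SE (bar) for the 10 members in KO against WT untreated mice, KO against WT over both viruses, and AAV-PRDM16 against AAV-GFP over both genotypes. Lep (1.90) and Bmp8b (1.76) stand farthest from 0 for genotype in the AAV cohort, and Slit2 (-1.33) for virus.

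Receptors for these factors were examined in the same fits. The gene lists here and below were chosen with earlier results of these data known. Their shares of calls are therefore not independent support. Of 18 receptors tested in the AAV cohort, 3 were higher in KO mice over both viruses at FDR 0.05 and none lower, beside 2.18% of all genes, 200 higher and 212 lower. Aplnr, the apelin receptor of endothelium, rose by 0.85 on the log2 scale (SE 0.20, FDR 0.0468), from 10.6 ± 3.78 and 10.8 ± 1.61 CPM in the WT groups to 17.4 ± 2.09 and 21.5 ± 7.09 CPM in the KO groups with AAV-GFP and AAV-PRDM16 (SD, n = 3). Cdh13, which binds adiponectin multimers, rose by 0.69 (FDR 0.0454), and C3ar1, the receptor of a complement fragment downstream of adipsin, by 1.27 (FDR 0.0297). These calls were lost in most fits without 1 library: Aplnr was called in 1, Cdh13 in 4 and C3ar1 in 5 of 12. C3ar1 is also a gene of macrophages, 5 of whose 10 markers were higher in KO mice, and their part in its change was not tested. The 10 endothelium markers summed to 511 to 646 CPM in WT and 477 to 785 CPM in KO libraries, none at 0. Of these 10, 9 had a log2 difference above 0 (median 0.332) and none passed FDR 0.05, and their part in the change of Aplnr was not tested.

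Other adipokines gave 5 calls among 26 tested, with 4 higher and 1 lower in KO mice, beside the same 2.18% of all genes. This list too was chosen with earlier results of these data known. Fbn1, the precursor of asprosin and of the matrix protein fibrillin, rose by 0.82 (FDR 0.00838), from 10.4 ± 2.07 and 8.57 ± 0.610 CPM in WT to 17.0 ± 1.87 and 16.4 ± 2.72 CPM in KO mice given AAV-GFP and AAV-PRDM16, and it was called in 12 of 12 fits without 1 library. C1qtnf12 (adipolin, a relative of adiponectin) fell by 0.51 (FDR 0.0165) and was called in 10 of 12, but not without WT AAV-GFP mouse 3 (FDR 0.0505) or KO AAV-PRDM16 mouse 1 (FDR 0.0588). Of its relatives, C1qtnf9 rose by 0.52 (FDR 0.0225) and C1qtnf1 by 0.54 (FDR 0.0287), called in 6 and 2 of 12, and Serpinf1 (pigment epithelium-derived factor) rose by 0.55 (FDR 0.0415), called in 2 of 12. The median over the 26 was 0.286, beside 0.0104 over all genes.

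Among 25 other brown fat secreted factors, 1 was called, near the 2.18% of all genes. Fstl1, a follistatin-like glycoprotein, rose by 0.68 (FDR 0.0184), from 12.9 ± 2.11 and 12.6 ± 1.58 CPM in WT to 20.0 ± 3.84 and 20.8 ± 1.98 CPM in KO mice. It lost the call without WT AAV-PRDM16 mouse 1 (FDR 0.0541) or KO AAV-PRDM16 mouse 1 (FDR 0.0588). Fstl1, Fbn1 and Serpinf1 are made by fibroblasts, 4 of whose 10 markers were higher in KO mice, and their part in these changes was not tested. Slit3 (0.53, FDR 0.0517) and Pltp (0.37, FDR 0.0633) followed with values over the threshold.

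Of 18 genes for the transcription and secretion of adipokines, none was called by edgeR over both viruses. Cebpa, a transcription factor of fat cell differentiation, had -0.27 (FDR 0.0848), and Cebpb had -0.64 (FDR 0.101). Both passed with DESeq2 (FDR 0.0138 and 0.0154), which called 8.38% of all genes in this comparison. Ero1lb, an oxidase of the endoplasmic reticulum, had 0.18 (FDR 0.320).

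In untreated mice, none of the genes in these 4 lists was called at FDR 0.05. The smallest p values were those of Acvr1c (-1.35), Erbb4 (-1.80), a receptor of neuregulins, and Bmpr2 (-1.12) among receptors, of Angptl4 (0.99), Nampt (-0.96) and Apoe (1.005) among other adipokines, of Angpt1 (-1.40), Metrn (1.02) and Pltp (0.72) among brown fat factors, and of Ap2a1 (0.69), Ero1l (-0.76) and Sirt1 (-0.73) among the secretion and transcription genes, as log2 differences of KO from WT with FDR from 0.305 to 0.308. For the virus over both genotypes, none was called either. There C3ar1 had -0.91 (FDR 0.140), C5ar1 -0.69 and Erbb4 0.29 among receptors, C1qtnf12 0.19, Dpp4 -0.50 and C1qtnf1 -0.18 among adipokines, Vegfb 0.22, Gdf11 -0.41 and Fndc5 -1.11 among brown fat factors, and Ero1l 0.15, Sec24b -0.14 and Ap2a1 0.09 among the secretion and transcription genes. DESeq2 called C3ar1 (FDR 0.0194), and it called 602 of all 18899 genes in this comparison.

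Each member was matched with the 3 genes whose log2 CPM was most like its own over the 12 AAV libraries, among 13528 named genes. These r values describe libraries that share groups, depth and cell content, and are given with r over the 10 untreated libraries beside them. Lep was most like Dpysl3 (r = 0.963 and 0.828), Cavin2 (0.957 and 0.536) and Hspa12a (0.950 and 0.833). Rbp4 was most like Bag1 (0.981 and 0.557), Smoc1 (0.964 and 0.907) and Fam213a (0.958 and 0.124). Slit2 was most like Rgs16 (0.970 and 0.841), Ighv3-6 (0.968 and -0.323) and Pld4 (0.966 and 0.602).

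Adipoq was most like Spcs1, a subunit of the signal peptidase complex (r = 0.956 and 0.595), Rpl19 (0.935 and 0.823) and Fam192a (0.931 and 0.0288). Cfd was most like Spcs2, another subunit of that complex (0.939 and 0.842), Rps3a1 (0.930 and 0.419) and Ppib, a chaperone of the endoplasmic reticulum (0.915 and 0.794). Retn followed Polb (0.929 and -0.161), Srprb (0.918 and 0.559) and E2f5 (0.899 and -0.0243).

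Nrg4 followed Ccdc181 (0.869 and 0.444), Olfml2a (0.836 and 0.603) and Pcdhga1 (0.823 and 0.664). Bmp8b followed Ube4a (0.897 and -0.154) and Gnptab (0.892 and -0.401), and Apln followed Mmp25 (0.948 and 0.0105), Lamp1 (0.884 and -0.122) and Hnrnpk (0.843 and -0.161). Metrnl followed Lrrc1 (0.897 and 0.220), Nop58 (0.861 and -0.345) and Rps15a (0.857 and 0.623).

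The members lie on 10 different chromosomes of GRCm38, all as protein-coding genes. Adipoq is at chr16:23146536-23158028, Lep at chr6:29060220-29073877, Retn at chr8:3655770-3660110, Cfd at chr10:79890853-79892655 and Rbp4 at chr19:38116629-38125281. Nrg4 is at chr9:55220222-55326844, Bmp8b at chr4:123105165-123132099, Apln at chrX:48025146-48034853, Slit2 at chr5:47983138-48307733 and Metrnl at chr11:121701544-121716306. Nrg4, Rbp4 and Apln are on the minus strand and the other 7 on the plus strand. Their co-variation was therefore between genes that are not neighbours.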

How the data were processed

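BAT RNA was extracted with TRIzol and made into libraries with the SureSelect XT HS2 mRNA kit. The authors deposited 1 table of raw counts per cohort, with 55487 Ensembl genes in each and 55320927 to 162721202 counts a library. The submitters' processing notes name bcl2fastq 2.20, Trimmomatic 0.36, HISAT2 and GRCm38.p6. The counting tool, its annotation and the use of strand or molecular identifiers are not given in the sources used here. Duplicate reads would be counted as separate molecules, so counting error is a lower limit of the error. Mitochondrial genes took 24.6 to 38.9% of the counts.

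The 10 members and all gene lists were chosen with earlier results of these data known. Groups came from the labels. Nothing in the labels says more of the replicates than that they are separate samples, numbered by mouse. No 2 libraries of a group agreed within sampling noise. Each cohort was fitted alone with edgeR 4.0.16 in R 4.3.3: filterByExpr (minimum count 10), TMM scaling, and two-sided quasi-likelihood tests, with p-values adjusted by Benjamini and Hochberg's method over 17869 genes (untreated) or 18899 genes (AAV), and calls at FDR 0.05. The 12 AAV libraries shared 1 estimate of the spread. Intervals are 95% from the same fit, and all fold changes are relative to TMM scaling. CPM use TMM-scaled library totals, and log2 CPM add a prior count of 2. Levels between genes were divided by the longest transcript of GENCODE M21, which matched 55227 gene identifiers. Pairs of members were tested by permuting mice within groups (scipy 1.17.1, numpy 2.4.6). The edgeR fit was run on simulated counts for 1 genotype comparison in each cohort, with 1 fixed dispersion for all genes, a simpler setting than the data. The permutation test was run on simulated independent values. DESeq2 and limma-voom were not tested in this way.

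Named were all 10 members and the genes Cpeb2, Prdm16 and Ucp1 as checks. From the lists of receptors, other adipokines, other brown fat secreted factors, and transcription and secretion genes, every gene at FDR 0.05 was named, at most 6 a list, and up to 3 with the smallest p in the 3 main comparisons. For each member, the 3 genes most like it over the AAV libraries were named, except 1 gene that is not reported here. Markers of other cell types were named only where a level was given beside a result. Alternatives were RLE scaling, DESeq2 1.42.0, limma 3.58.1 voom with sample weights, no filter on low counts, no mitochondrial genes, a replicate block, the thresholds of the study (2-fold and FDR 0.5), a prior count of 0.5 for the pairs, and fits without single libraries or sets of them.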

Additional observations from a re-analysis of the deposited data

Results flagged for a closer look

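Bmp8b in untreated WT mouse 5 stood far from its group, at 12.8 CPM where the nearest of the other 4 WT mice had 1.66 CPM. The gap made up 0.883 of the range of the group, above the critical value of 0.71 for 5 samples. Of the 26 groups examined in this way it was the only one, and chance alone sets about 1 in 20 such groups apart.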

How the results depend on the processing

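The untreated comparison is limited by its spread, by 6 libraries without Y-linked transcripts and by KO mouse 1 with Cpeb2 at a WT level. After AAV injection 3 mice a group limit the tests, and Bmp8b and Slit2 rest on few counts. Fits restricted by Y-linked transcripts or leaving out the 2 AAV libraries highest in muscle markers were chosen after seeing the data. The cause of the changes given here was not tested.

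Of 604 values of the 73 named results under alternatives other than leaving out 1 library, 565 kept their direction and their side of the threshold. At 2-fold and FDR 0.5, the members called numbered 2 in untreated mice, 1 under AAV-PRDM16, 2 over both viruses and 1 for the virus over both genotypes, and DESeq2 called 1 over both viruses, where edgeR at FDR 0.05 called 0. The pairs that varied together fell from 8 to 0 without WT mice 1 and 2, to 0 within the libraries without Y-linked transcripts, and to between 2 and 7 without 1 library. Each of these settings has fewer permutations, which limits how small p can be.

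Log2 differences that turned their sign in untreated mice were, with limma-voom, Lep -0.37, Bmp8b 0.75, Apln -0.20 and Slit2 -0.051. Without WT mice 1 and 2, Slit2 had -0.15. Without KO mouse 1 (Cpeb2 at a WT level), Lep had -0.29, Bmp8b 0.041 and Slit2 -0.079. With Y-linked transcripts as a covariate, Adipoq had -0.061 and Rbp4 -0.14. Within libraries without Y-linked transcripts Apln had -0.69, and within those with them Adipoq had -0.27, Retn -0.18, Rbp4 -0.90 and Slit2 -0.29. Without 1 library the ranges that crossed 0 were -0.079 to 0.76 for Slit2, -0.56 to 1.91 for Bmp8b, -0.29 to 1.34 for Lep and -0.23 to 0.66 for Apln.

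In the AAV cohort, limma-voom turned Metrnl to -0.20 for genotype, and Lep to -0.095, Retn to 0.13 and Apln to 0.17 for virus. Without the 2 libraries highest in muscle markers, Lep had -0.18 and Retn 0.18 for virus. Without 1 library, genotype ranges crossing 0 were -0.15 to 0.27 for Apln, -0.12 to 0.038 for Adipoq, -0.41 to 0.092 for Cfd and -0.14 to 0.25 for Metrnl. Virus ranges crossing 0 were -0.28 to 0.14 for Apln, -0.14 to 0.18 for Retn, -0.44 to 0.063 for Cfd, -0.27 to 0.46 for Lep, -0.063 to 0.30 for Rbp4, -0.33 to 0.078 for Metrnl and -0.012 to 0.16 for Adipoq.

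Replicate numbers were shared between groups, but same-numbered samples did not deviate together. The correlation of their deviations was -0.292 to 0.111 in untreated and -0.0912 to 0.154 in AAV libraries, so the replicate numbers were taken as names. Among differently numbered untreated libraries it ran from -0.357 (WT mouse 5 and KO mouse 2) to 0.293 (WT mouse 5 and KO mouse 3). The animal numbers in the labels are consecutive for that last pair. A grouping of mice by animal number or litter was not tested, and the fits and permutations treated the mice of a group as exchangeable. With a replicate block, Bmp8b in untreated mice turned to 0.31, Lep over both viruses had 1.81, and Cdh13 (0.70, FDR 0.0616) and Serpinf1 (0.55, FDR 0.0578) lost their calls. With no filter on low counts, Cdh13 (FDR 0.0513), Aplnr (FDR 0.0502) and Serpinf1 (FDR 0.0523) lost theirs. Without the 2 libraries highest in muscle markers, Aplnr (FDR 0.0728) and C3ar1 (FDR 0.0508) lost theirs.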
